A study of Mus musculus with 15 samples.

Results

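The genes described here encode the enzymes that write, copy and remove DNA methylation, and their values come from an RNA-Seq data set of self-organizing optic tissue made from mouse embryonic stem (ES) cells. Members were chosen by gene symbol, as Dnmt1, Dnmt3a, Dnmt3b, Dnmt3l, Tet1, Tet2, Tet3, Uhrf1 and Tdg. All 9 were found among the 23244 entries of the data set, each as 1 entry, and all 9 passed the filter on low values that 13845 entries passed. The tissue was grown by SFEBq, a serum-free floating culture in which dissociated ES cells reaggregate quickly and form a neuroepithelium. All 15 samples derive from 1 reporter line, EB5 Rx::GFP+/-, in which GFP marks cells that use the eye field gene Rx, and the ES cells had been kept in a medium that held CHIR99201 and a MEK inhibitor. The starting group, Day 10 Rx::GFP+, is GFP+ tissue dissected from the rim of the aggregates, and the other 4 groups are such explants after further culture in a maturation medium under 1 of 2 stimulations. For +Wnt tissue the medium held CHIR99201, an inhibitor of the kinase GSK3, at 3 µM for the first 24 h and at 1 µM later. For +Fgf tissue it held 5 ng/ml human recombinant bFgf and 10% fetal bovine serum (FBS). Both kinds were collected at Day 12 and at Day 15, with 3 biological replicates in each of the 5 groups. Serum was in the +Fgf medium only and there was no unstimulated Day 12 or Day 15 group, so the effects of bFgf, of serum and of a lack of CHIR99201 cannot be told apart.

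The aggregates are mixed tissues. At the last day the study likens +Fgf tissue to neural retina and +Wnt tissue to retinal pigmented epithelium (RPE), though neither is pure. The summed level of 8 neural retina genes was 1695 to 1864 CPM in Day 15 +Fgf libraries and 164 to 183 CPM in Day 15 +Wnt libraries, whereas that of 9 pigment epithelium genes was 345 to 419 and 5480 to 7048 CPM, respectively. Rpe65, a visual cycle enzyme of mature RPE, was at 0 in 14 of 15 libraries and at 1 read in the other. Libraries held 12556998 to 16175450 reads on genes, and 1 read was worth 0.0620 to 0.0764 CPM, the name the authors give to reads scaled by library size and between libraries. In tissue of this kind fewer cells of a type and less RNA per cell cannot be told apart, and DNA methylation itself was not measured.

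DNA methylation in mammals is the addition of a methyl group to cytosine, mostly where a guanine follows. The de novo enzymes Dnmt3a and Dnmt3b place new marks and Dnmt3l, which has no catalytic activity, assists them in germ cells and early embryonic cells. Dnmt1 copies the marks to the new strand after DNA replication, and Uhrf1 binds the hemimethylated DNA and brings Dnmt1 to it. Tet1, Tet2 and Tet3 oxidize methylcytosine stepwise. Tdg is a DNA glycosylase that cuts out the most oxidized forms, which base excision repair then replaces by plain cytosine. Retinal progenitors divide and then leave the cell cycle as neurons, and RPE cells become quiescent early.

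The 9 genes lie on 7 chromosomes (build GRCm38, also called mm10). Dnmt1 spans bases 20907209 to 20959888 of chromosome 9 on the minus strand, Uhrf1 bases 56303321 to 56323486 of chromosome 17 on the plus strand, Dnmt3a bases 3806007 to 3914443 of chromosome 12 on the plus strand and Dnmt3b bases 153649450 to 153687730 of chromosome 2 on the plus strand. Chromosome 10 carries Dnmt3l (78041947 to 78063622, plus), Tet1 (62804570 to 62908996, minus) and Tdg (82629828 to 82650799, plus). Tet2 lies on chromosome 3 (133463679 to 133545139, minus) and Tet3 on chromosome 6 (83362373 to 83459084, minus). Exons of Dnmt3a, Dnmt3l, Tet2 and Tdg overlap exons of a gene on the opposite strand (Dnmt3aos, Aire, Gm42567 and Glt8d2). Whether reads were counted by strand was not stated, so the 4 values could hold reads of those neighbours. Dnmt3a, Dnmt3l and Tdg also have annotated pseudogenes, whose reads may not be separable.

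Dnmt1 and Uhrf1 act at replicating DNA, and the promoters of all members were searched for the letters that the cell cycle factor family E2F is known to bind. The letters searched were the words TTTCCCGC, TTTCGCGC, TTTGCCGC and TTTGGCGC on both strands, from 250 bases before to 50 bases after each start in the RefSeq promoter table (GRCm38.p6), with no other motif. All 9 genes matched, with 16 starts. Of these, 2 held a word, 1 start of Dnmt1 and 1 of Uhrf1, against 744 of all 32851 starts (2.26%) and 8 of the 23 starts (34.8%) of the 21 S phase genes that matched. The members' share was thus 12.5%, and that of the other gene lists used here ran from 0% to 13.3% (germline genes). Each word holds a CG, and the share over all starts was not matched for CG content. The site of Uhrf1 lay 185 to 178 bases before its start, and the Dnmt1 start had a word on the opposite strand 219 to 212 bases before it and another on the same strand 34 to 41 bases after it. Of the 250 bases before this Dnmt1 start 166 lay in annotated exons of Dnmt1, against 0 in exons for this Uhrf1 start. The 30 bases around the upstream words, at chr9:20952824-20952853 (minus strand, shown as transcribed) and chr17:56304117-56304146 (plus strand), are given with the word in capitals, which reads GCGCGAAA for Dnmt1 because it lies on the opposite strand.
Dnmt1 site: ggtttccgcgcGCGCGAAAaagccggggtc
Uhrf1 site: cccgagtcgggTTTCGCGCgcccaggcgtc
The 250 bases before that Uhrf1 start (chr17:56304063-56304312, plus strand) are shown beside those before the single listed Dnmt3b start (chr2:153649199-153649448, plus strand), because both genes were lower in +Wnt than in +Fgf tissue at Day 12 and at Day 15.
Uhrf1: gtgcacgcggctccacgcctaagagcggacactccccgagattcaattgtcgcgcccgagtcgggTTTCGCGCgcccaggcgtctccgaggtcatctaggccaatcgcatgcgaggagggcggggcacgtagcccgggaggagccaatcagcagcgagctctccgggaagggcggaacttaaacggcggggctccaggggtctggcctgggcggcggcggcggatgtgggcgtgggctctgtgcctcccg
Dnmt3b: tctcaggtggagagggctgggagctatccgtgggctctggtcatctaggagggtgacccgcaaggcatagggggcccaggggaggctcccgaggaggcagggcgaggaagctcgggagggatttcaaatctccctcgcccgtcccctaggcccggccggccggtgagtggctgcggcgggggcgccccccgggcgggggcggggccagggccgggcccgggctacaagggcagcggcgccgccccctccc
The capitals in the Uhrf1 sequence mark the same word, and the Dnmt3b window of 300 bases held none. A match is a description of letters and not evidence of binding. The windows of 15 of the 16 starts had 3 to 57 CG dinucleotides (the other, a Dnmt1 start, had 2). The median was 20 over the 16 starts, against 7 over all starts in the table.

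The genes differed widely in level, and the make-up of both families shifted with time. Per kilobase of the listed transcript, Tdg was the highest member at Day 10 (97.8 ± 1.91 CPM per kb, SD, n = 3), followed by Uhrf1 (75.8 ± 3.78) and Dnmt1 (65.1 ± 4.98). Dnmt3a and Dnmt3b stood at like levels then (19.5 ± 0.957 and 18.8 ± 1.16 CPM per kb), above Tet3 (10.7 ± 1.35), and Dnmt3l, Tet1 and Tet2 were lowest (3.27 ± 0.608, 3.19 ± 0.143 and 1.42 ± 0.134). By Day 15 in +Wnt tissue Dnmt3a had passed both Uhrf1 and Dnmt1, with 54.4 ± 2.13 CPM per kb against 23.7 ± 2.14 and 26.5 ± 1.40, and was level with Tdg (53.8 ± 1.67). Of the DNMT family's sum per kilobase, Dnmt1 made up 61.0% ± 1.18 at Day 10, 44.5% ± 0.902 at Day 15 +Fgf and 30.0% ± 1.24 at Day 15 +Wnt, while Dnmt3a made up 18.3% ± 1.64, 43.8% ± 1.12 and 61.7% ± 3.04 (SD, n = 3). The family's sum was 107 ± 6.19 CPM per kb at Day 10, 133 ± 3.51 and 92.8 ± 4.81 in +Fgf and +Wnt tissue at Day 12, and 107 ± 4.46 and 88.2 ± 2.12 in these tissues at Day 15. Among the TET genes Tet3 held the largest share in all 15 libraries, 69.9% ± 2.32 at Day 10 and 58.9% ± 1.72 and 59.9% ± 1.94 at Day 15 +Fgf and +Wnt.

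**Figure D1:**
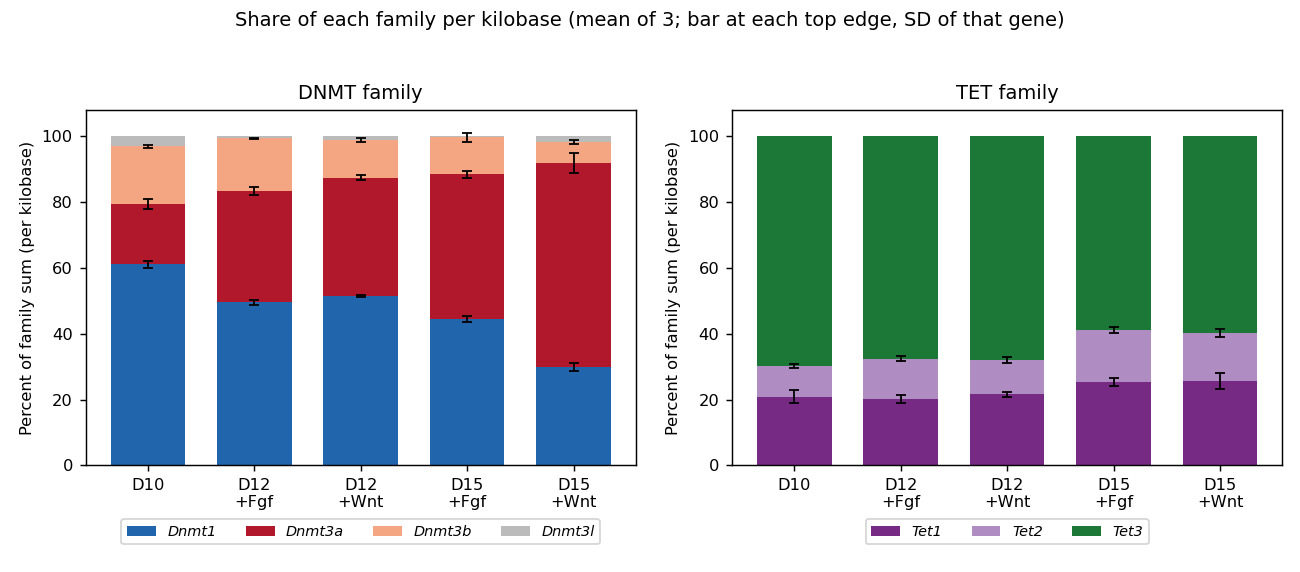
Mean share (percent) of each gene in its family's summed CPM per kilobase, by group (n = 3 libraries each), with the SD of the gene below each edge drawn as a bar on that edge. The share of Dnmt1 fell from 61.0% at Day 10 to 30.0% at Day 15 +Wnt as that of Dnmt3a grew from 18.3% to 61.7%, and Tet3 kept the largest share of the TET family in every group.

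**Figure D2:**
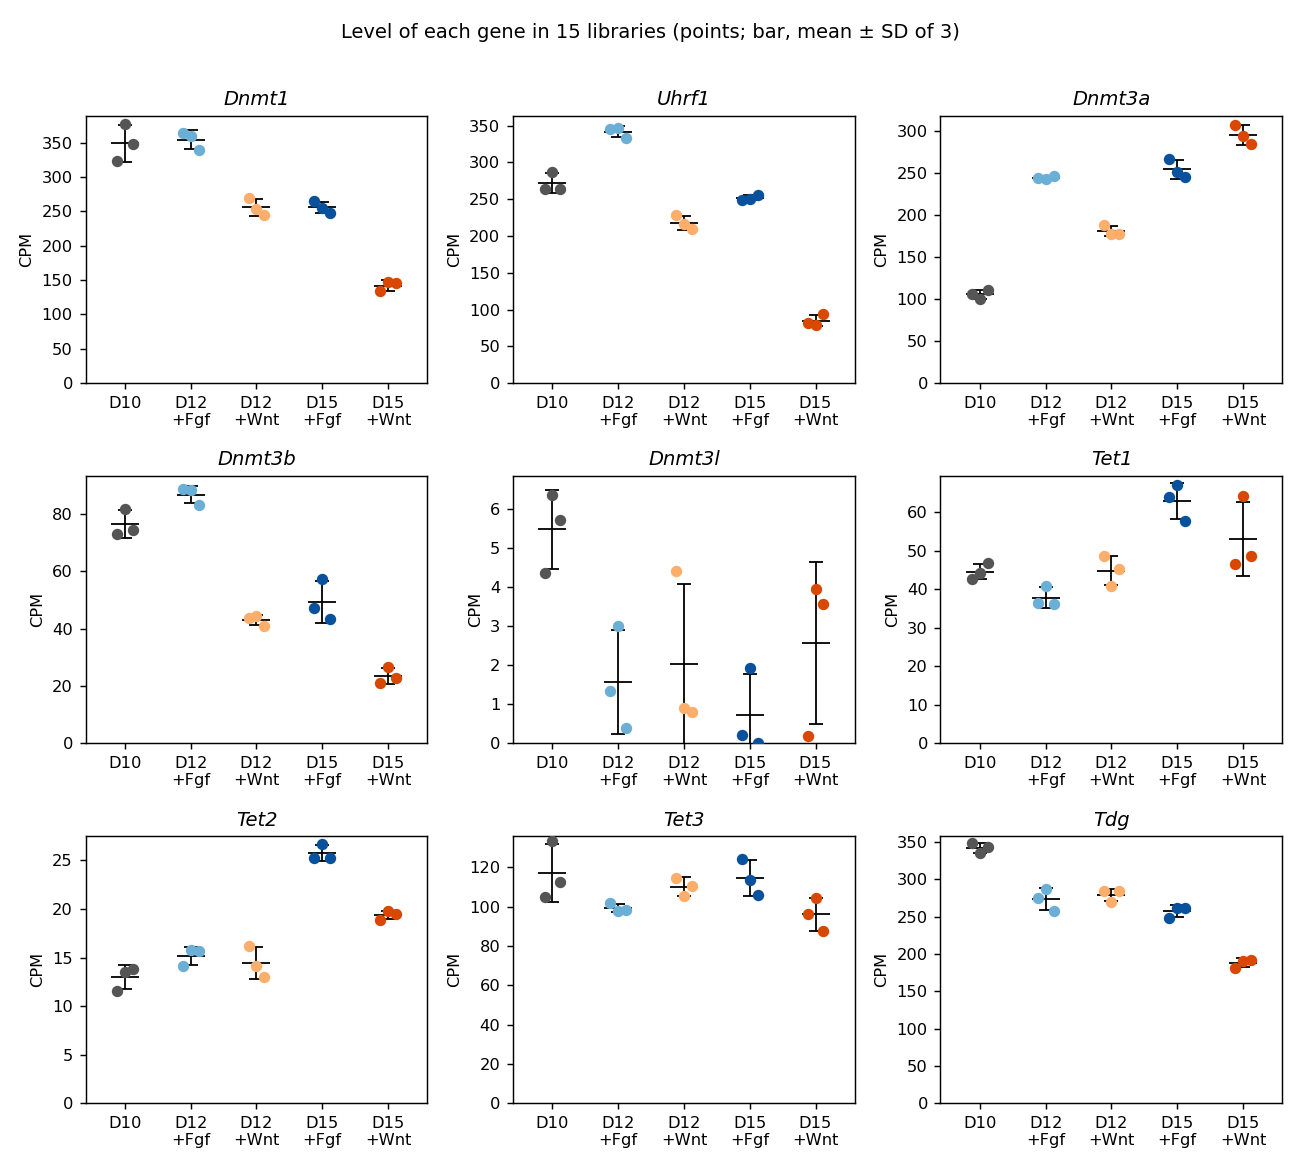
Level of the 9 genes (CPM, linear axes from 0) in the 15 libraries, each a point, with the mean ± SD of 3 replicates in black. Dnmt1, Uhrf1, Dnmt3b and Tdg were lowest in Day 15 +Wnt tissue and Dnmt3a was highest there, while Tet2 was highest in Day 15 +Fgf tissue and Dnmt3l differed widely between replicates.

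Differences between groups were tested with limma on log2(CPM + 0.3), so fold changes of low genes are understated, in 1 model of all 15 libraries with Benjamini-Hochberg adjustment over all 13845 genes and a threshold of 0.05. After stimulation, 4 of the 9 genes changed from Day 10 to Day 12 in +Fgf tissue, 2 higher and 2 lower, where 55.7% of all genes tested changed (27.9% higher and 27.8% lower), and 5 in +Wnt tissue, 1 higher and 4 lower, where 60.2% changed (30.6% higher and 29.6% lower). Between Day 12 and Day 15, 6 changed in +Fgf tissue, 3 in each direction, beside 57.1% of all genes (27.2% higher, 29.9% lower). In +Wnt tissue 7 changed, 2 higher and 5 lower, beside 68.0% (32.5% higher, 35.5% lower). Between the stimulations, 4 genes were higher in +Fgf at Day 12 and none was lower, beside 51.5% of all genes (26.3% higher, 25.2% lower). At Day 15, 7 were higher and 1 lower, beside 68.7% (38.0% higher, 30.6% lower). Against Day 10, Day 15 +Fgf tissue had 7 changed members, 3 higher and 4 lower, beside 72.6% of all genes (36.2% higher, 36.4% lower), and Day 15 +Wnt tissue had 8, 3 higher and 5 lower, beside 79.8% (39.6% higher, 40.2% lower). The change from Day 12 to Day 15 differed between the stimulations for 6 members, 5 with a value above 0 and 1 below, beside 47.9% of all genes (27.0% above, 20.9% below). Libraries of the compared groups did not overlap for 8 of the 9 members between Day 10 and Day 12 +Fgf (61.0% of all genes) and for 5 between Day 10 and Day 12 +Wnt (64.3%). The same held for 6 members between the +Fgf days (63.7%) and for 7 between the +Wnt days (72.8%). Between the stimulations it held for 5 at Day 12 (60.4%) and 7 at Day 15 (73.1%), and between Day 10 and Day 15 for 8 in +Fgf tissue (73.8%) and 8 in +Wnt tissue (80.6%). Changes were thus common among all genes and a count over 9 members is read only beside these shares, and the comparisons that share a group are not independent of each other. The replicates are stated to be biological ones of 1 line. The p-values rest on the spread between them, which the model estimates over all 5 groups together and moderates over all genes.

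**Figure D3:**
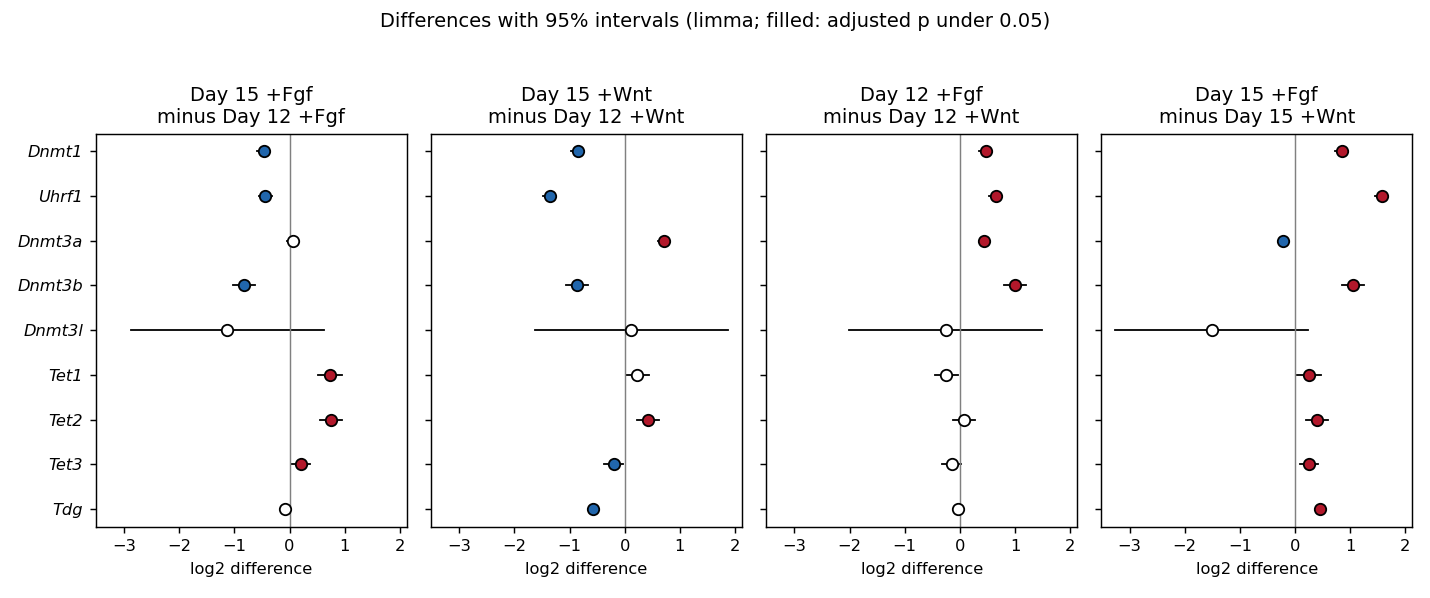
Log2 differences of the 9 genes with 95% intervals in the change from Day 12 to Day 15 within each stimulation and in +Fgf minus +Wnt at each day (limma, n = 3 per group). Filled points passed an adjusted p of 0.05, red for higher and blue for lower. Dnmt1, Uhrf1 and Dnmt3b lay below 0 in the panels of change with time and above 0 in those of +Fgf minus +Wnt.

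The maintenance pair fell more in +Wnt than in +Fgf tissue. Dnmt1, the maintenance methyltransferase, was at 323, 376 and 348 CPM at Day 10, 365, 359 and 338 at Day 12 +Fgf and 269.5, 254 and 245 at Day 12 +Wnt. Dnmt1 at Day 15 was at 264, 255 and 248 CPM with +Fgf and at 133, 147 and 145 CPM with +Wnt. Day 12 +Fgf overlapped Day 10, Day 12 +Wnt overlapped Day 15 +Fgf, and Day 15 +Wnt lay below every other library. No change from Day 10 to Day 12 was detected in +Fgf tissue (0.02 with a 95% interval from -0.10 to 0.14, adjusted p = 0.763), whereas Dnmt1 fell in +Wnt tissue (-0.45 on the log2 scale, SE 0.057, adjusted p = 4.74e-06). It fell again from Day 12 to Day 15 under both conditions, by less in +Fgf tissue (-0.47 on the log2 scale, SE 0.057, adjusted p = 2.6e-06) than in +Wnt tissue (-0.85 on the log2 scale, SE 0.057, adjusted p = 1.39e-09), and the difference between these changes passed the test (0.38 on the log2 scale, SE 0.080, adjusted p = 0.000941). Day 15 +Fgf tissue held 1.80 times the Dnmt1 level of Day 15 +Wnt tissue.

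Uhrf1, the partner that brings Dnmt1 to hemimethylated DNA, was at 264, 288 and 264 CPM at Day 10, 345, 347 and 334 at Day 12 +Fgf and 228, 216 and 209.8 at Day 12 +Wnt. Uhrf1 at Day 15 was at 249, 251 and 256 CPM with +Fgf and at 82.1, 78.9 and 93.5 CPM with +Wnt. No pair of groups overlapped. Its level rose from Day 10 to Day 12 in +Fgf tissue (0.33 on the log2 scale, SE 0.056, adjusted p = 9.59e-05) and fell in +Wnt tissue (-0.32 on the log2 scale, SE 0.056, adjusted p = 0.000123). From Day 12 to Day 15 it fell by 1.36-fold in +Fgf tissue (-0.44 on the log2 scale, SE 0.056, adjusted p = 4.39e-06) and by 2.57-fold in +Wnt tissue (-1.36 on the log2 scale, SE 0.056, adjusted p = 6.38e-12), and these changes differed (0.92 on the log2 scale, SE 0.079, adjusted p = 1.02e-07). At Day 15 the gap between the stimulations was the largest of the 9 genes among those called, 2.97-fold (1.57 on the log2 scale, SE 0.056, adjusted p = 4.61e-13). The Day 15 +Fgf samples had, as a group, the lowest RNA integrity numbers listed by the study. With that number as a covariate the fall of Uhrf1 in +Fgf tissue did not pass (-0.26, SE 0.10, adjusted p = 0.0746). That of Dnmt1 did (-0.34, SE 0.11, adjusted p = 0.0338).

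Genes of DNA replication fell in the same tissues. The S phase and mitosis lists, like the other gene lists used here, were chosen with earlier results of these data known. Their counts thus describe the listed genes only. The summed level of 26 S phase genes was 4858 to 5224 CPM at Day 10, 4497 to 4806 at Day 12 +Fgf, 3704 to 3839 at Day 12 +Wnt, 3305 to 3386 at Day 15 +Fgf and 1586 to 1732 at Day 15 +Wnt. All 26 fell from Day 12 to Day 15 in +Wnt tissue, beside 35.5% of all genes (median -1.25 on the log2 scale, against -0.02 over all genes). In +Fgf tissue 24 fell and 1, E2f1, rose, beside 29.9% and 27.2% of all genes (median -0.49, against -0.02). At Day 15 all 26 were higher in +Fgf than in +Wnt tissue, beside 38.0% of all genes. Pcna, the replication clamp, was at 357, 348 and 344 CPM at Day 15 +Fgf and 169, 187 and 201 at Day 15 +Wnt, and Mcm5, a subunit of the replicative helicase, at 173, 169 and 164 CPM at Day 15 +Fgf and 74.6, 72.6 and 84.4 at Day 15 +Wnt, with differences of 0.92, adjusted p = 1.26e-10 and 1.13, adjusted p = 6.98e-12. E2f1, a transcription factor of the entry into S phase, had the largest difference of the list (1.98, adjusted p = 3.71e-12), followed by Ccne2 (1.71, adjusted p = 5.65e-09) and Rrm2 (1.52, adjusted p = 2.59e-12), a cyclin and a subunit of ribonucleotide reductase. The 11 mitosis genes summed to 1754 to 1914 CPM at Day 10, 2569 to 2808 at Day 12 +Fgf, 2111 to 2160 at Day 12 +Wnt, 2405 to 2495 at Day 15 +Fgf and 912 to 955 at Day 15 +Wnt. The genes thus parted at Day 12 +Fgf, where Uhrf1 and all 11 mitosis genes rose from Day 10 while 9 S phase genes rose and 11 fell. Of all genes 27.9% rose and 27.8% fell in that comparison.

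As a share of the S phase sum, Dnmt1 stayed between 6.59% and 9.16% in the 15 libraries, highest in Day 15 +Wnt (8.66% ± 0.439, SD, n = 3) and lowest in Day 12 +Wnt (6.76% ± 0.246). Uhrf1 was at 7.32% ± 0.0943 and 7.54% ± 0.120 of that sum in +Fgf tissue at Day 12 and Day 15, and at 5.75% ± 0.184 and 5.16% ± 0.245 in +Wnt tissue. The ratio of Uhrf1 to Dnmt1 per kilobase was 1.17 ± 0.0511 at Day 10, 1.45 ± 0.0293 and 1.48 ± 0.0695 at Day 12 and Day 15 +Fgf, and 1.27 ± 0.00687 and 0.895 ± 0.0834 at Day 12 and Day 15 +Wnt. Uhrf1 was thus above Dnmt1 per kilobase in 12 libraries and below it in the 3 of Day 15 +Wnt. Orders per kilobase rest on the length of the listed transcript of each gene. In CPM the mean of Uhrf1 was below that of Dnmt1 in every group (342 against 354 at Day 12 +Fgf). The part of cell division in the Dnmt1 and Uhrf1 differences was not tested.

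**Figure D4:**
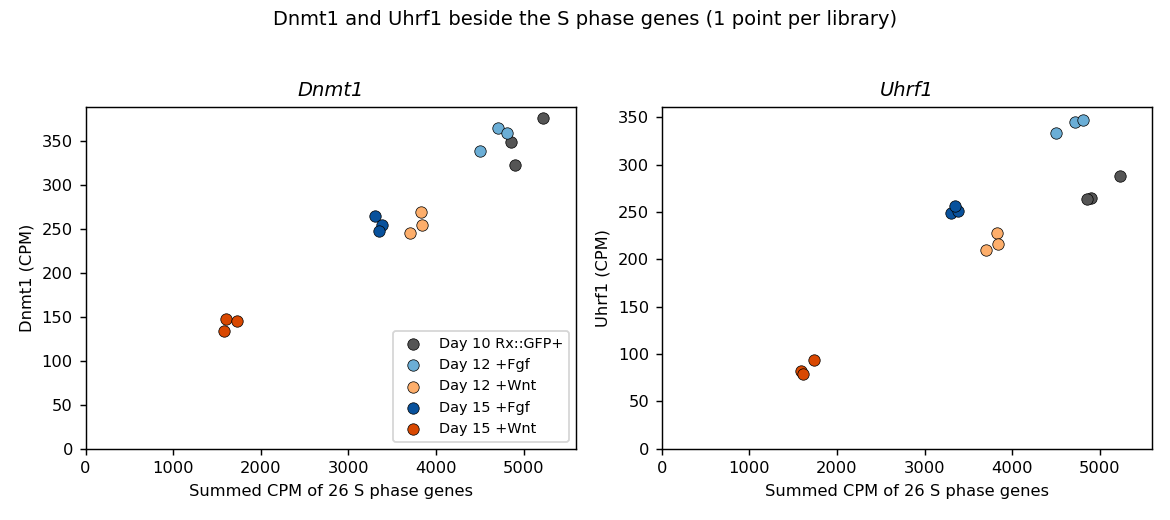
Level of Dnmt1 (left) and Uhrf1 (right) in CPM against the summed CPM of 26 S phase genes, 1 point for each of the 15 libraries, axes from 0. The 3 Day 15 +Wnt libraries lie at 1586 to 1732 CPM on the horizontal axis and below every other library for both genes, and for Uhrf1 the Day 12 +Fgf libraries lie above Day 10, and the Day 15 +Fgf libraries above Day 12 +Wnt, at lower S phase sums.

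The de novo enzymes went apart. Dnmt3a was at 106, 100.4 and 111 CPM at Day 10, 244, 243 and 247 at Day 12 +Fgf and 188, 177 and 177 at Day 12 +Wnt. Dnmt3a at Day 15 was at 266, 251 and 245 CPM with +Fgf and at 307, 294 and 284 CPM with +Wnt. The 3 Day 10 libraries were lowest and the 3 Day 15 +Wnt libraries highest, and Day 12 +Fgf overlapped Day 15 +Fgf. It rose by 2.31-fold from Day 10 to Day 12 in +Fgf tissue (1.21 on the log2 scale, SE 0.046, adjusted p = 2.43e-11) and by 1.71-fold in +Wnt tissue (0.77 on the log2 scale, SE 0.046, adjusted p = 1.14e-09), and was higher in +Fgf than in +Wnt tissue at Day 12 (0.44 on the log2 scale, SE 0.046, adjusted p = 5.91e-07). From Day 12 to Day 15 it went on rising in +Wnt tissue (0.71 on the log2 scale, SE 0.046, adjusted p = 9.99e-10), but in +Fgf tissue no change was detected (0.06 with a 95% interval from -0.04 to 0.15, adjusted p = 0.325). The order of the stimulations had turned by Day 15, when Dnmt3a was lower in +Fgf tissue (-0.22 on the log2 scale, SE 0.046, adjusted p = 0.000503), and the changes with time differed (-0.65 on the log2 scale, SE 0.065, adjusted p = 5.36e-07). Dnmt3a was the 1 member of 9 that rose above its Day 10 level by more than 2-fold in both Day 15 tissues (2.40-fold and 2.79-fold).

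Dnmt3b, the other de novo enzyme, was at 72.98, 81.8 and 74.5 CPM at Day 10, 88.5, 88.2 and 83.2 at Day 12 +Fgf and 43.6, 44.4 and 40.98 at Day 12 +Wnt. Dnmt3b at Day 15 was at 47.3, 57.3 and 43.2 CPM with +Fgf and at 21.1, 26.7 and 22.7 CPM with +Wnt. Every +Fgf library lay above every +Wnt library of the same day, and Day 12 +Wnt overlapped Day 15 +Fgf. Its difference between Day 12 +Fgf and Day 10 did not pass the test (0.18 with a 95% interval from -0.02 to 0.38, adjusted p = 0.11), although the libraries of these groups did not overlap. In +Wnt tissue it fell by 1.77-fold over the same days (-0.82 on the log2 scale, SE 0.093, adjusted p = 1.33e-06). From Day 12 to Day 15 Dnmt3b fell by about as much in +Fgf (-0.82 on the log2 scale, SE 0.093, adjusted p = 1.37e-06) as in +Wnt tissue (-0.87 on the log2 scale, SE 0.093, adjusted p = 4.13e-07), and a difference between these falls was not detected (0.05 with a 95% interval from -0.23 to 0.33, adjusted p = 0.792). The gap between the stimulations was 2.01-fold at Day 12 (1.01 on the log2 scale, SE 0.093, adjusted p = 1.31e-07) and 2.07-fold at Day 15 (1.05 on the log2 scale, SE 0.093, adjusted p = 3.44e-08).

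The ratio of Dnmt3a to Dnmt3b per kilobase was 1.09, 0.921 and 1.12 in the 3 Day 10 libraries. It was 2.07, 2.07 and 2.23 at Day 12 +Fgf and 3.23, 3.00 and 3.24 at Day 12 +Wnt. At Day 15 it was 4.22, 3.29 and 4.25 with +Fgf and 10.9, 8.28 and 9.38 with +Wnt. The order of the 5 groups in this ratio had no overlap between neighbours, and Dnmt3a was above Dnmt3b in 14 of 15 libraries. The ratio of Dnmt1 to Dnmt3a per kilobase went the other way, from 3.35 ± 0.381 at Day 10 to 1.02 ± 0.0107 at Day 15 +Fgf and 0.487 ± 0.0422 at Day 15 +Wnt (SD, n = 3).

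Dnmt3l, the helper protein without catalytic activity, was low and uneven. It was at 4.36, 6.35 and 5.73 CPM at Day 10, 1.33, 2.99 and 0.383 at Day 12 +Fgf and 4.403, 0.905 and 0.794 at Day 12 +Wnt. Dnmt3l at Day 15 was at 0.221, 1.92 and 0 CPM with +Fgf and at 0.186, 3.95 and 3.58 CPM with +Wnt. These levels are 64 to 95 reads at Day 10 and 0 to 70 reads in the other libraries. Only Day 10 had 3 libraries of like level. In each of the other groups 1 or 2 libraries stood above the rest, namely Day 12 +Fgf replicate 2, Day 12 +Wnt replicate 1, Day 15 +Fgf replicate 2 and Day 15 +Wnt replicates 2 and 3. Of the 8 pairwise comparisons 1 passed, the fall from Day 10 to Day 15 +Fgf (-3.02 on the log2 scale, SE 0.83, adjusted p = 0.00354), which was called in all fits with 1 library left out (-3.85 to -2.41). The comparison of Day 15 +Fgf with Day 15 +Wnt did not pass (-1.51 on the log2 scale, SE 0.83, adjusted p = 0.116), but it did without Day 15 +Fgf replicate 2 (-2.34, adjusted p = 0.0207) and without Day 15 +Wnt replicate 1 (-2.53, adjusted p = 0.0081). Likewise, Day 12 against Day 10 did not pass in either tissue with all libraries (-1.89, adjusted p = 0.0624 for +Fgf and -1.64, adjusted p = 0.0976 for +Wnt), but passed without Day 12 +Fgf replicate 2 (-2.44, adjusted p = 0.0316) and without Day 12 +Wnt replicate 1 (-2.32, adjusted p = 0.0339). Day 15 +Wnt against Day 10 passed without Day 15 +Wnt replicate 2 (-2.06, adjusted p = 0.0496; with all libraries -1.51, adjusted p = 0.103).

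Genes of pluripotent cells stood high in the same libraries as Dnmt3l. Their list, too, was chosen with earlier results of these data known. The summed level of 12 such genes was 65.1, 89.0 and 79.2 CPM at Day 10, 20.4, 29.0 and 12.1 at Day 12 +Fgf, 82.3, 47.7 and 32.6 at Day 12 +Wnt, 8.85, 32.1 and 9.68 at Day 15 +Fgf and 24.9, 83.8 and 82.1 at Day 15 +Wnt. In each group the library with the highest sum was the one with the most Dnmt3l. None of the 12 genes was at 0 in all 15 libraries. Pou5f1, the defining transcription factor of pluripotent cells, was at 8.38, 7.75 and 8.405 CPM at Day 10, 2.73, 2.61 and 0.447 at Day 12 +Fgf and 12.4, 6.68 and 5.36 at Day 12 +Wnt. Pou5f1 at Day 15 was at 0, 2.88 and 0.212 CPM with +Fgf and at 2.05, 11.9 and 11.9 CPM with +Wnt. At Day 15, 9 of the 11 pluripotency genes tested were lower in +Fgf than in +Wnt tissue, beside 30.6% of all genes (median -1.85, against 0.05 over all genes). The gene most like Dnmt3l over the 15 libraries, among 10115 genes with a mean of at least 10 CPM, was Dppa5a (Pearson r = 0.86, n = 15, as a description). Dppa5a is itself in the list of 12 pluripotent cell genes, so this likeness is not separate from that of the sum. The part of such cells in the Dnmt3l levels was not tested.

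**Figure D5:**
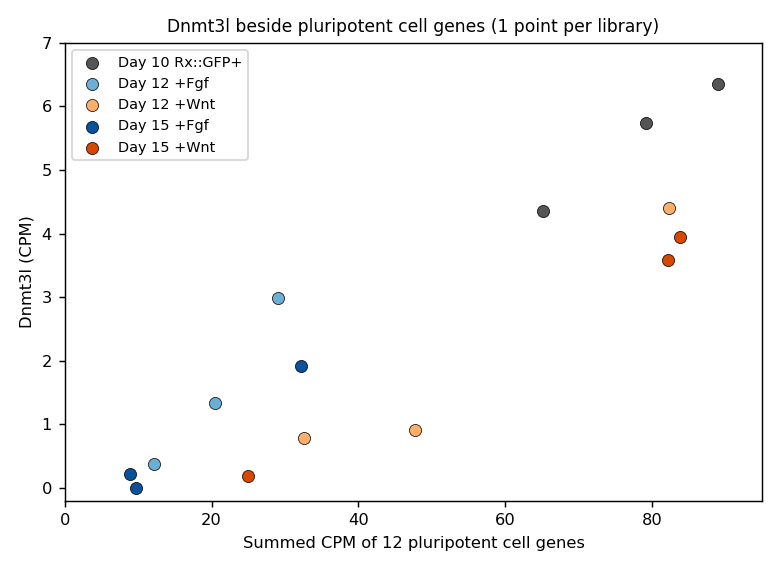
Dnmt3l (CPM) against the summed CPM of 12 pluripotent cell genes in the 15 libraries, 1 point per library and coloured by group. The 6 libraries with the highest sums, the 3 of Day 10, 1 of Day 12 +Wnt and 2 of Day 15 +Wnt, are also the 6 with the most Dnmt3l.

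Of the TET dioxygenases Tet2 varied least between replicates at Day 15. It was at 11.6, 13.6 and 13.8 CPM at Day 10, 14.1, 15.8 and 15.7 at Day 12 +Fgf and 16.2, 14.1 and 12.98 at Day 12 +Wnt. Tet2 at Day 15 was at 25.3, 26.7 and 25.2 CPM with +Fgf and at 18.9, 19.8 and 19.5 CPM with +Wnt. Both Day 15 groups lay above all 9 earlier libraries, and +Fgf lay above +Wnt. Tet2 rose from Day 12 to Day 15 by 1.68-fold in +Fgf (0.75 on the log2 scale, SE 0.094, adjusted p = 3.75e-06) and by 1.34-fold in +Wnt tissue (0.42 on the log2 scale, SE 0.094, adjusted p = 0.000708). A difference between these rises was not detected (0.33 with a 95% interval from 0.04 to 0.61, adjusted p = 0.0528), and the gap at Day 15 was 1.32-fold (0.40 on the log2 scale, SE 0.094, adjusted p = 0.0011). With RNA integrity as a covariate the rise in +Fgf tissue passed (adjusted p = 0.00992). The gap at Day 15 did not (0.41, SE 0.18, adjusted p = 0.0789).

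Tet1 was at 42.8, 44.3 and 46.8 CPM at Day 10, 36.5, 40.97 and 36.1 at Day 12 +Fgf and 48.6, 40.9 and 45.2 at Day 12 +Wnt. Tet1 at Day 15 was at 64.1, 67.2 and 57.8 CPM with +Fgf and at 46.6, 64.3 and 48.7 CPM with +Wnt. Both Day 15 means lay above the others, and Day 15 +Wnt replicate 2 stood with the Day 15 +Fgf libraries. The means of Day 12 +Wnt and Day 10 were alike (44.9 and 44.6 CPM), and that of Day 12 +Fgf was lowest (37.9 CPM). This lower level did not pass in limma against Day 10 (-0.24, adjusted p = 0.0575) or against Day 12 +Wnt (-0.24, adjusted p = 0.0545). Both differences passed narrowly in edgeR's test on the reads (adjusted p = 0.0499 and 0.0436). Tet1 rose by 1.66-fold from Day 12 to Day 15 in +Fgf tissue (0.73 on the log2 scale, SE 0.10, adjusted p = 1.24e-05), where the groups did not overlap. In +Wnt tissue the rise did not pass in limma (0.23 with a 95% interval from 0.02 to 0.45, adjusted p = 0.0538), but it passed in edgeR's test on the reads (0.29, adjusted p = 0.019) and without Day 12 +Wnt replicate 1 or Day 15 +Wnt replicate 1 or 3 (0.09 to 0.32 over the 6 fits with 1 library left out). The changes in the tissues differed (0.50 on the log2 scale, SE 0.14, adjusted p = 0.00898). With RNA integrity as a covariate this difference did not pass (0.54, SE 0.24, adjusted p = 0.107). At Day 15 Tet1 was called higher in +Fgf than in +Wnt tissue (0.26 on the log2 scale, SE 0.10, adjusted p = 0.0342), but the libraries overlapped and the call was lost in edgeR's quasi-likelihood test on the reads (0.20, adjusted p = 0.0947) and without Day 15 +Fgf replicate 1 or 2 or Day 15 +Wnt replicate 1 (0.17) or 3. Its higher level at Day 15 +Wnt than at Day 10 (0.24 on the log2 scale, SE 0.10, adjusted p = 0.0409) was lost without Day 10 replicate 1 or 2 and without Day 15 +Wnt replicate 2 (0.09, adjusted p = 0.314). Neither call passed with RNA integrity as a covariate (adjusted p = 0.242 for the gap at Day 15 and 0.168 for Day 15 +Wnt against Day 10).

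Tet3, the most abundant TET gene per kilobase, was at 105, 133 and 113 CPM at Day 10, 102, 97.7 and 98.3 at Day 12 +Fgf and 115, 105 and 110.5 at Day 12 +Wnt. Tet3 at Day 15 was at 124, 113 and 106 CPM with +Fgf and at 96.3, 104 and 87.5 CPM with +Wnt. Its group means lay between 96.0 and 117 CPM, and the libraries of neighbouring groups in that order overlapped except those of Day 12 +Wnt and Day 12 +Fgf. Small differences passed the test. Tet3 was lower at Day 12 +Fgf than at Day 10 (-0.23 on the log2 scale, SE 0.080, adjusted p = 0.0224), rose from Day 12 to Day 15 in +Fgf tissue (0.20 on the log2 scale, SE 0.080, adjusted p = 0.0417), fell over these days in +Wnt tissue (-0.20 on the log2 scale, SE 0.080, adjusted p = 0.0348) and was higher in +Fgf than in +Wnt tissue at Day 15 (0.25 on the log2 scale, SE 0.080, adjusted p = 0.0104). Each of these 4 calls was lost without some single library. The lower level at Day 15 +Wnt than at Day 10 also passed (-0.28 on the log2 scale, SE 0.080, adjusted p = 0.00412), and these groups did not overlap. That call was kept in all 6 fits with 1 library left out (-0.355 to -0.183). It was also kept in edgeR's test (-0.23, adjusted p = 0.0152) and with RNA integrity as a covariate (-0.26, adjusted p = 0.0461). With that covariate the fall in +Wnt tissue passed too (adjusted p = 0.0411). The lower level at Day 12 +Fgf (adjusted p = 0.198), the rise in +Fgf tissue (0.557) and the gap at Day 15 (0.295) did not. The fall at Day 12 +Fgf was lost without Day 10 replicate 2 (-0.13) or Day 12 +Fgf replicate 2 or 3, and the later rise without any one of the 3 Day 12 +Fgf libraries or Day 15 +Fgf replicate 1 or 2 (0.14 to 0.22 in these 5 fits). The fall in +Wnt tissue was lost without replicate 1 or 3 of either day (-0.21 to -0.14), in edgeR's test (-0.15, adjusted p = 0.125) and under other scalings, and the gap at Day 15 without Day 15 +Fgf replicate 1 or Day 15 +Wnt replicate 3 (0.19 in both). The difference between the changes with time kept its call in all 12 fits with 1 library left out (0.40 on the log2 scale, SE 0.11, adjusted p = 0.00788 with all). With RNA integrity as a covariate it did not pass (0.35, SE 0.19, adjusted p = 0.184).

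Tdg, the glycosylase that acts after the TET enzymes, was at 348, 335 and 344 CPM at Day 10, 275, 287 and 258 at Day 12 +Fgf and 284, 269.8 and 284 at Day 12 +Wnt. Tdg at Day 15 was at 248, 262 and 262 CPM with +Fgf and at 182, 190.5 and 193 CPM with +Wnt. Day 10 lay above and Day 15 +Wnt below all other libraries, and the 3 groups between overlapped in part. It fell from Day 10 to Day 12 by like amounts in +Fgf (-0.33 on the log2 scale, SE 0.044, adjusted p = 1.08e-05) and +Wnt tissue (-0.29 on the log2 scale, SE 0.044, adjusted p = 2.63e-05), with no difference detected between them at Day 12 (-0.03 with a 95% interval from -0.13 to 0.06, adjusted p = 0.548). From Day 12 to Day 15 it fell further in +Wnt tissue (-0.57 on the log2 scale, SE 0.044, adjusted p = 8.17e-09) but not detectably in +Fgf tissue (-0.09 with a 95% interval from -0.18 to 0.01, adjusted p = 0.11), and these changes differed (0.48 on the log2 scale, SE 0.062, adjusted p = 9.02e-06).

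Over the 15 libraries, which fall into 5 groups of 3, the log2 levels of Dnmt1, Dnmt3b and Uhrf1 went up and down together (Pearson r = 0.97 for Dnmt1 with Dnmt3b, 0.96 for Dnmt1 with Uhrf1 and 0.93 for Dnmt3b with Uhrf1, as descriptions with no test). Tdg went with them (0.89 with Dnmt1) and against Dnmt3a (-0.85), and Tet1 went with Tet2 (0.80). Of the 10115 genes compared, those most like Dnmt1 were Haus6, a gene of the mitotic spindle (0.995), Smarcc1, a chromatin remodelling subunit (0.993), and Smchd1, a chromosomal protein of X inactivation (0.992). Those most like Uhrf1 were Chtf18 (0.995), Clspn (0.992) and Fignl1 (0.992), genes of replication, its checkpoint and DNA repair. Dnmt3a was most like Wdr34 (0.986), Zmym3 (0.985) and Nfic (0.984), and the genes close to Dnmt3b included Tpm3 (0.983) and Tbx20 (0.982). Those close to Tet2 included Ednrb (0.969) and Mgarp (0.967). For Tet1 the closest genes were Pgm2l1 (0.936), Agap1 (0.924) and Zfp292 (0.913), for Tet3 Msl1 (0.921), 9930021J03Rik (0.891) and Ncoa6 (0.882), and for Tdg Actl6a (0.989), Emg1 (0.988) and Hnrnph1 (0.985). The points share groups, days and libraries, so a high value says only that profiles over these groups are alike.

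Genes that work beside these enzymes were taken from lists by function, chosen with earlier results of these data known. Their counts stand beside shares that were also high over all genes. Of all genes tested, 38.0% were higher and 30.6% lower in +Fgf than in +Wnt tissue at Day 15, 32.5% rose and 35.5% fell from Day 12 to Day 15 in +Wnt tissue, and 27.2% rose and 29.9% fell in +Fgf tissue. Of 14 genes of base excision and related repair, 9 were higher and 2 lower in +Fgf than in +Wnt tissue at Day 15 (median 0.35, against 0.05 over all genes), 8 fell and 4 rose from Day 12 to Day 15 in +Wnt tissue (median -0.38), and 6 rose and 5 fell in +Fgf tissue (median 0.19). The largest difference was that of Gadd45a, a stress response gene that has been linked to active demethylation, at 14.7, 15.98 and 17.3 CPM at Day 10, 43.3, 39.3 and 45.4 at Day 12 +Fgf and 11.8, 13.4 and 13.2 at Day 12 +Wnt. Gadd45a at Day 15 was at 179.7, 164 and 149 CPM with +Fgf and at 8.44, 8.95 and 8.49 CPM with +Wnt. It was 18.4-fold higher in +Fgf than in +Wnt tissue at Day 15 (4.20 on the log2 scale, SE 0.086, adjusted p = 6.33e-16), having risen in +Fgf tissue and fallen in +Wnt tissue from Day 12 (1.94, adjusted p = 3.53e-11 and -0.55, adjusted p = 2.57e-05). Its relative Gadd45g went the other way at Day 15 (-1.45, adjusted p = 4.15e-07), and Gadd45b showed no detectable difference (0.01 with a 95% interval from -0.31 to 0.33, adjusted p = 0.959). The glycosylase Neil3 was higher in +Fgf tissue (1.17, adjusted p = 5.95e-09) and Neil2 lower (-1.33, adjusted p = 1.31e-06), the latter at 1.22 to 6.33 CPM in the 15 libraries. Neuronal genes also differed, the summed level of 14 genes of retinal ganglion cells and early neurons being 2367 to 2616 CPM at Day 15 +Fgf and 1580 to 1967 CPM at Day 15 +Wnt. Their part in these differences was not tested.

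Of 9 genes for proteins that read methylated DNA, Uhrf2 among them, 7 were higher and 1 lower in +Fgf tissue at Day 15 (median 0.34), and 6 fell and 2 rose in +Wnt tissue from Day 12 to Day 15 (median -0.33). Zbtb4, which binds methylated DNA, was the gene lower in +Fgf, at 15.8, 17.1 and 16.8 CPM at Day 15 +Fgf and 28.5, 25.6 and 27.7 at Day 15 +Wnt (-0.71, adjusted p = 1.48e-05). Mbd4, a glycosylase for mismatches at methylated sites (0.69, adjusted p = 6.07e-07), and Uhrf2, the paralogue of Uhrf1 (0.57, adjusted p = 3.68e-08), were higher. The gap of Uhrf1 was 2.97-fold and that of Uhrf2 1.48-fold.

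Of 19 partners and regulators of the DNMT and TET proteins, 14 were higher and 2 lower in +Fgf tissue at Day 15 (median 0.31), and 14 fell and 3 rose in +Wnt tissue from Day 12 to Day 15 (median -0.31). Hells, a remodeller needed for methylation of repeats, and its activator Cdca7 were higher in +Fgf tissue (0.78, adjusted p = 7.47e-08 and 0.84, adjusted p = 5.87e-08), having fallen from Day 12 in both tissues. Cxxc5, a CXXC protein that binds unmethylated CpG, was at 124, 136 and 121 CPM at Day 10, 195, 203 and 222 at Day 12 +Fgf and 90.96, 99.5 and 100.1 at Day 12 +Wnt. Cxxc5 at Day 15 was at 285, 265 and 269 CPM with +Fgf and at 109, 114 and 111 CPM with +Wnt. It had the largest difference among the 14 genes higher in +Fgf tissue (1.29, adjusted p = 5.82e-12). Dppa3, a germ cell and early embryo protein that keeps Uhrf1 off chromatin, was lower in +Fgf tissue (-3.12, adjusted p = 3.21e-05) at 0, 0.549 and 0 CPM against 1.18, 6.34 and 4.84 CPM, and its 2 higher Day 15 +Wnt libraries were those with more Dnmt3l.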

How the data were processed

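RNA-Seq libraries of 15 samples of mouse SFEBq tissue were analysed, 3 biological replicates in each of 5 groups taken from the labels. Paired reads had been aligned by the authors with TopHat2 2.0.8b to mm10, assigned to UCSC genes with Cuffdiff (Cufflinks 2.1.1) and normalized with edgeR 3.2.4 to values called CPM. The deposited values are treated as a normalized signal, since the columns sum to 936418 to 1075448. Read filters, strand setting and normalization options were not given in the sources used here. Dividing by the value of 1 read gave whole numbers for 100% of values above 0, within a relative tolerance of 0.001, and these reads served for a count test.

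The filter required 1 CPM, relative to each column's sum, in 3 or more samples and kept 13845 of 23244 entries. Because the values are not counts, limma 3.58.1 (R 4.3.3) was fitted to log2(value + 0.3), with 5 group means, moderation with a trend, two-sided tests and Benjamini-Hochberg adjustment within each of 9 comparisons. The edgeR 4.0.16 quasi-likelihood test on recovered reads, other pseudocounts (0.05 and 1), filters (none and 10 CPM), scalings, the RNA integrity number as covariate, a replicate block and leaving out each library were alternatives. The procedure was tested on simulated data in which few genes changed, and only in Day 15 +Wnt. That test does not cover comparisons in which most genes change. Annotation was GENCODE vM21 (GRCm38) and lengths are those of the GENCODE transcript paired with the RefSeq entry of the files. The named genes are all 9 members, the 3 genes most correlated with each, and up to 4 called genes per list with the largest difference at Day 15, with Pcna and Mcm5. Rpe65, Pou5f1 and Gadd45b were added after their values were seen. Some genes that the rule names are not reported here. Members, lists and named genes were chosen with earlier results of these data known. Python 3.11.15 with NumPy 2.4.6, pandas 2.3.3 and matplotlib 3.10.9 was used for tables and figures.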

Additional observations from a re-analysis of the deposited data

Results flagged for a closer look

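For 6 of the 9 genes the change from Day 12 to Day 15 differed between the stimulations by the interaction term of the limma model, which 47.9% of all 13845 genes also passed. On the log2 scale, as the change in +Fgf minus the change in +Wnt tissue, the difference was 0.92 for Uhrf1, 0.38 for Dnmt1, -0.65 for Dnmt3a, 0.50 for Tet1, 0.40 for Tet3 and 0.48 for Tdg. Uhrf1 and Dnmt1 fell in both tissues and more in +Wnt, Dnmt3a rose in +Wnt tissue, Tdg fell in +Wnt tissue, Tet1 rose in +Fgf tissue, and Tet3 had small changes in opposite directions. With RNA integrity as a covariate 4 of the 6 differences passed, and those of Tet1 and Tet3 did not (adjusted p = 0.107 and 0.184).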

How the results depend on the processing

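Most values kept their direction and their side of the threshold. The largest shifts came with RNA integrity as a covariate, a number that was lowest in the Day 15 +Fgf group. It left 3591 genes called from Day 12 to Day 15 +Fgf (7899 without it), 3842 in the difference between changes with time (6636) and 5 of the 9 members between the stimulations at Day 15 (8). Standard errors were larger with it for the Tet2 gap at Day 15 (0.181 against 0.094, at differences of 0.41 and 0.40). The same held for the Uhrf1 fall in +Fgf tissue (0.103 against 0.056) but not for that in +Wnt tissue (0.051 against 0.056). Values that crossed 0 were uncalled in both fits. With that covariate they were Dnmt1 at Day 12 +Fgf against Day 10 (-0.055), Tet1 at Day 12 +Wnt against Day 10 (-0.012), Dnmt3a (-0.042), Dnmt3l (0.58) and Tdg (0.056) from Day 12 to Day 15 +Fgf, Dnmt3l between the Day 15 groups (0.031), and the differences between changes with time of Dnmt3b (-0.030) and Dnmt3l (0.49). With quantile normalization they were Tet3 at Day 12 +Wnt (0.018) and Day 15 +Fgf (0.058) against Day 10, Uhrf1 at Day 15 +Fgf against Day 10 (0.026), Tdg from Day 12 to Day 15 +Fgf (0.011) and Dnmt3l from Day 12 to Day 15 +Wnt (-0.46), which also crossed with a pseudocount of 0.05 (-0.022). Median-of-ratios scaling put Tet1 at Day 12 +Wnt against Day 10 at -0.004. The cause of these shifts was not tested. With 1 library left out, values that crossed 0 ranged from -0.033 to 0.077 (Dnmt1, Day 12 +Fgf against Day 10), -0.052 to 0.072 and -0.15 to 0.018 (Tet1 and Tet3, Day 12 +Wnt against Day 10), -0.10 to 0.069 (Tet3, Day 15 +Fgf against Day 10), -0.80 to 0.43 and -0.070 to 0.008 (Dnmt3l and Tdg, Day 12 +Fgf against Day 12 +Wnt), -0.42 to 1.14 (Dnmt3l, Day 12 to Day 15 +Wnt) and -0.067 to 0.14 (Dnmt3b, difference between changes with time). Of 540 values of members with 1 library left out, 488 were unchanged in call and direction, 16 gained and 21 lost a call. edgeR's test lost 2 member calls and gained 3. Under quantile normalization the median of all genes between Day 15 +Wnt and Day 10 moved to -0.11. Replicate numbers did not pair the samples: deviations of same-numbered samples correlated at -0.25 to 0.25 (median -0.008, 30 pairs) and of differently numbered ones at -0.33 to 0.29, and the replicate block changed 1 member call (Dnmt3b at Day 12 +Fgf against Day 10, 0.18, adjusted p = 0.0408). The filter of 10 CPM left out Dnmt3l. With 3 libraries per group, Dnmt3l and the smallest Tet1 and Tet3 differences are limited by the spread between libraries, and Dnmt3l also by 0 to 95 reads.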

Other observations

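S-adenosylmethionine is the methyl donor of all DNA methyltransferases. Of the genes listed for its supply and the linked one-carbon cycle, more fell than rose between the last days. The list included Ahcyl1 and Ahcyl2, named for their likeness to Ahcy, and both rose in +Fgf tissue (0.22, adjusted p = 7.8e-05 and 0.37, adjusted p = 0.000116). Of 12 such genes, 8 fell and 3 rose from Day 12 to Day 15 in +Fgf tissue (median -0.41) and 8 fell and 2 rose in +Wnt tissue (median -0.48), against medians of -0.02 over all genes in both, of which 29.9% fell and 27.2% rose in +Fgf and 35.5% fell and 32.5% rose in +Wnt tissue. At Day 15, 10 were higher and 2 lower in +Fgf than in +Wnt tissue (median 0.21, against 0.05 over all genes, 38.0% of which were higher and 30.6% lower). Ahcy, which removes the inhibitory product of methyl transfer, was at 312, 331 and 303 CPM at Day 10, 382, 376 and 342 at Day 12 +Fgf, 279, 289 and 279.6 at Day 12 +Wnt, 255, 268 and 262 at Day 15 +Fgf and 189, 172 and 181 at Day 15 +Wnt, and was higher in +Fgf tissue at Day 15 (0.53, adjusted p = 5.25e-08). Shmt2, a mitochondrial enzyme of the folate cycle, was also higher there (0.66, adjusted p = 1.03e-06) but rose from Day 12 in both tissues (0.54, adjusted p = 1.61e-05 in +Fgf and 0.55, adjusted p = 8.03e-06 in +Wnt). Mtr (0.51, adjusted p = 7.27e-06) and Mtap (0.48, adjusted p = 8.93e-07), of methionine synthesis and salvage, were higher in +Fgf tissue at Day 15 after falls in both.

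Of 12 listed germline genes whose promoters are methylated in somatic cells, 2 passed the filter on low values. Dazl, an RNA-binding protein of germ cells, was at 5.996, 8.02 and 9.17 CPM at Day 10, 1.46, 3.89 and 2.17 at Day 12 +Fgf, 3.52, 2.71 and 2.38 at Day 12 +Wnt, 0.369, 0.893 and 0.636 at Day 15 +Fgf and 0.6204, 4.18 and 3.09 at Day 15 +Wnt, and was lower in +Fgf than in +Wnt tissue at Day 15 (-1.41, adjusted p = 0.0101), with its lowest Day 15 +Wnt library, replicate 1, the one with the fewest pluripotency gene reads. Brdt, a testis bromodomain gene, was at 2.998, 3.48 and 3.21 CPM at Day 10, 5.197, 3.89 and 4.86 at Day 12 +Fgf, 2.58, 3.55 and 2.98 at Day 12 +Wnt, 8.26, 8.38 and 8.62 at Day 15 +Fgf and 4.47, 5.59 and 3.79 at Day 15 +Wnt, and was higher in +Fgf tissue at Day 15 (0.84, adjusted p = 0.000198).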
